A study of Mus musculus with 18 samples.

Results

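Slc7a5 and 7 further genes of amino acid uptake were followed through 18 messenger RNA libraries of cultured mouse T cells. The 8 genes are Slc7a5, Slc3a2, Slc7a6, Slc7a1, Slc1a5, Slc1a4, Slc38a1 and Slc38a2, which are 8 of the 55487 genes in the count table and 8 of the 12693 genes with enough counts to be tested. The genes were chosen by symbol, and Slc7a5 itself was chosen on its low counts in knockout CD8 and CD4 libraries. The knockout against wild-type values of these cells are therefore given as a description with no test.

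The tested genotype, here called KO, was Foxp3 YFP/cre Ebi3 -/-. Its comparison genotype, here called WT, was Foxp3 YFP/cre, so both carry YFP/cre in Foxp3, whose product is the master regulator of regulatory T cells (Treg). The Ebi3 protein pairs with other chains to form the cytokines IL-27 and IL-35. Cells labelled CD8, CD4 and Treg were sorted by flow cytometry from spleen, and each label has 3 KO and 3 WT libraries. Culture lasted 72 h, with IL-2 at 10 ng/ml and stimulation by anti-CD28 (2 µg/ml) and anti-CD3 coated on the plate (2 µg/ml). The labels give no animal ages and do not tell whether a replicate is its own animal or culture, so a p-value here measures the spread among libraries, which may be technical.

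Amino acid transporters of the SLC families set how fast an activated T cell can import building blocks for growth. Slc7a5 encodes LAT1, which brings leucine and other large neutral amino acids into the cell in exchange for glutamine and works only when bound to CD98, the heavy chain encoded by Slc3a2. Stimulation through the T cell receptor is known to raise LAT1, and the imported leucine is one of the signals read by the growth kinase complex mTORC1.

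Levels are given as counts per 1000000 (CPM) of the TMM-scaled library size. Libraries held 1358671 to 2255950 counts for CD8 and CD4 and 841892 to 1089003 for the Treg label, so that 3 counts in a library, the limit that a count of 0 allows, correspond to 1.33 to 3.56 CPM (counting error only). The 8 genes lay above it in all libraries, at 10 or more counts each. Several labels were not borne out by their defining markers. Foxp3 had 0 or 1 count in every library, including those labelled Treg. The Treg-labelled libraries held both coreceptors, with Cd4 at 34.1 to 67.3 CPM and Cd8a at 24.7 to 46.3 CPM, whereas CD8 libraries had 0 to 0.504 CPM of Cd4 and CD4 libraries 0 to 1.67 CPM of Cd8a. Ebi3 tags were counted in KO as well as WT libraries, at 24.0 to 33.7 CPM in CD8 KO against 27.7 to 29.4 CPM in CD8 WT, 20.4 to 25.9 CPM in CD4 KO against 38.3 to 59.9 CPM in CD4 WT, and 24.3 to 34.1 CPM in Treg-labelled KO against 25.6 to 39.8 CPM in Treg-labelled WT libraries. The deleted part of Ebi3 is not given in the labels, and a 3′ tag outside it checks nothing. Of the 9 libraries labelled KO, the 3 from CD4 cells lay below their WT counterparts in Ebi3 and the others overlapped with theirs. B cell markers (12 of 12 detected in every group) summed to 4650 to 11050 CPM, against 1102 to 2679 CPM for T cell markers. Within the Treg label, 2 of 6 pairs of libraries of the same genotype differed by less than the sampling noise and were each counted as 1 sample, leaving n = 2 per genotype. Of the 9 pairs of a KO with a WT library of that label, 4 also differed by less than the sampling noise, whereas 0 of 9 did in CD8 and 0 of 9 in CD4 cells. The lowest chi-square per gene of any pair, 0.869, was between Treg-labelled KO replicate 2 and WT replicate 3. Whether the Treg-labelled libraries are separate samples of the genotypes they name was not tested, and the values of that label hold only as far as they are.

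Slc7a5 (ENSMUSG00000040010; GRCm38 chromosome 8, 121881150 to 121907694, minus strand) was low in KO libraries of both CD8 and CD4 cells. CD8 KO libraries had 40.3, 61.2 and 55.5 CPM, against 147.7, 82.7 and 149.9 CPM in CD8 WT libraries. CD4 KO libraries had 42.9, 42.5 and 26.4 CPM, against 79.4, 117.7 and 128.1 CPM in CD4 WT libraries. In both cell types the highest KO library stayed below the lowest WT library. The group means were 52.3 ± 10.8 CPM in CD8 KO and 126.7 ± 38.2 CPM in CD8 WT cells (SD, n = 3 each), and 37.3 ± 9.38 CPM in CD4 KO and 108.4 ± 25.7 CPM in CD4 WT cells (SD, n = 3 each). These values rest on 57 to 120 Slc7a5 counts in KO and 110 to 306 counts in WT libraries of these cells.

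On the log2 scale the KO over WT difference of Slc7a5 was -1.27 (SE 0.257, 95% interval -1.83 to -0.717) in CD8 cells, which is 0.414 of the WT level. It was -1.55 (SE 0.271, interval -2.14 to -0.969) in CD4 cells, or 0.341 of the WT level. These SEs and intervals take no account of the choice of Slc7a5 on these low KO libraries and serve as no test. The CD4 difference minus the CD8 difference was -0.28 (SE 0.375), and its interval of -1.09 to 0.528 takes in 0. Leaving out any 1 library gave -1.50 to -1.12 in CD8 and -1.72 to -1.36 in CD4 cells. Of the 12693 genes, 0.0% were called at an adjusted p of 0.05 for KO against WT in CD8 cells, 0.0% in CD4 cells and 0.0% for the difference between them (edgeR quasi-likelihood test, Benjamini-Hochberg). At an unadjusted p under 0.05, edgeR had 1727 genes in CD8 cells, 678 in CD4 cells and 1894 for the difference. DESeq2 called 29 genes in CD8 cells, 1 in CD4 cells and 1 for the difference, and limma-voom called 0 in each.

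In the Treg label, where 4 KO and WT pairs lay within the sampling noise, the genotypes overlapped. Slc7a5 had 140.9, 103.4 and 97.3 CPM in Treg-labelled KO libraries, against 150.2, 159.5 and 93.7 CPM in Treg-labelled WT libraries. The lowest value was in a WT library, and the log2 difference was -0.18 (SE 0.337, interval -0.906 to 0.549). In that comparison 0.0% of genes were called (0 of 12693, with 185 genes at an unadjusted p under 0.05 in edgeR and 0 called by DESeq2 or limma-voom). Whether the KO over WT difference of Slc7a5 itself differs between the Treg label and the other cells was not tested.

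Ranked by mean CPM, Slc7a5 was highest in CD8 WT (126.7), followed by Treg-labelled WT (124.3 ± 43.2, n = 2), Treg-labelled KO (111.2 ± 11.1, n = 2), CD4 WT (108.4), CD8 KO (52.3) and CD4 KO (37.3). Each group overlapped with the next in this order except CD4 WT and CD8 KO, whose libraries lay apart. Across all 18 libraries Slc7a5 spanned a 6.04-fold range, from 26.4 to 159.5 CPM. Slc7a5 is overlapped on the opposite strand by the predicted gene Gm20388, counted at 22 to 58 tags per library, and the strand setting of the counting is not given in the sources used here. Gm20388 had 20.9, 21.4 and 27.5 CPM in CD8 KO against 19.4, 14.6 and 13.7 CPM in CD8 WT libraries, which is the reverse order of Slc7a5, and 16.7 to 23.3 CPM in CD4 KO against 15.9 to 23.0 CPM in CD4 WT libraries.

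**Figure D1:**
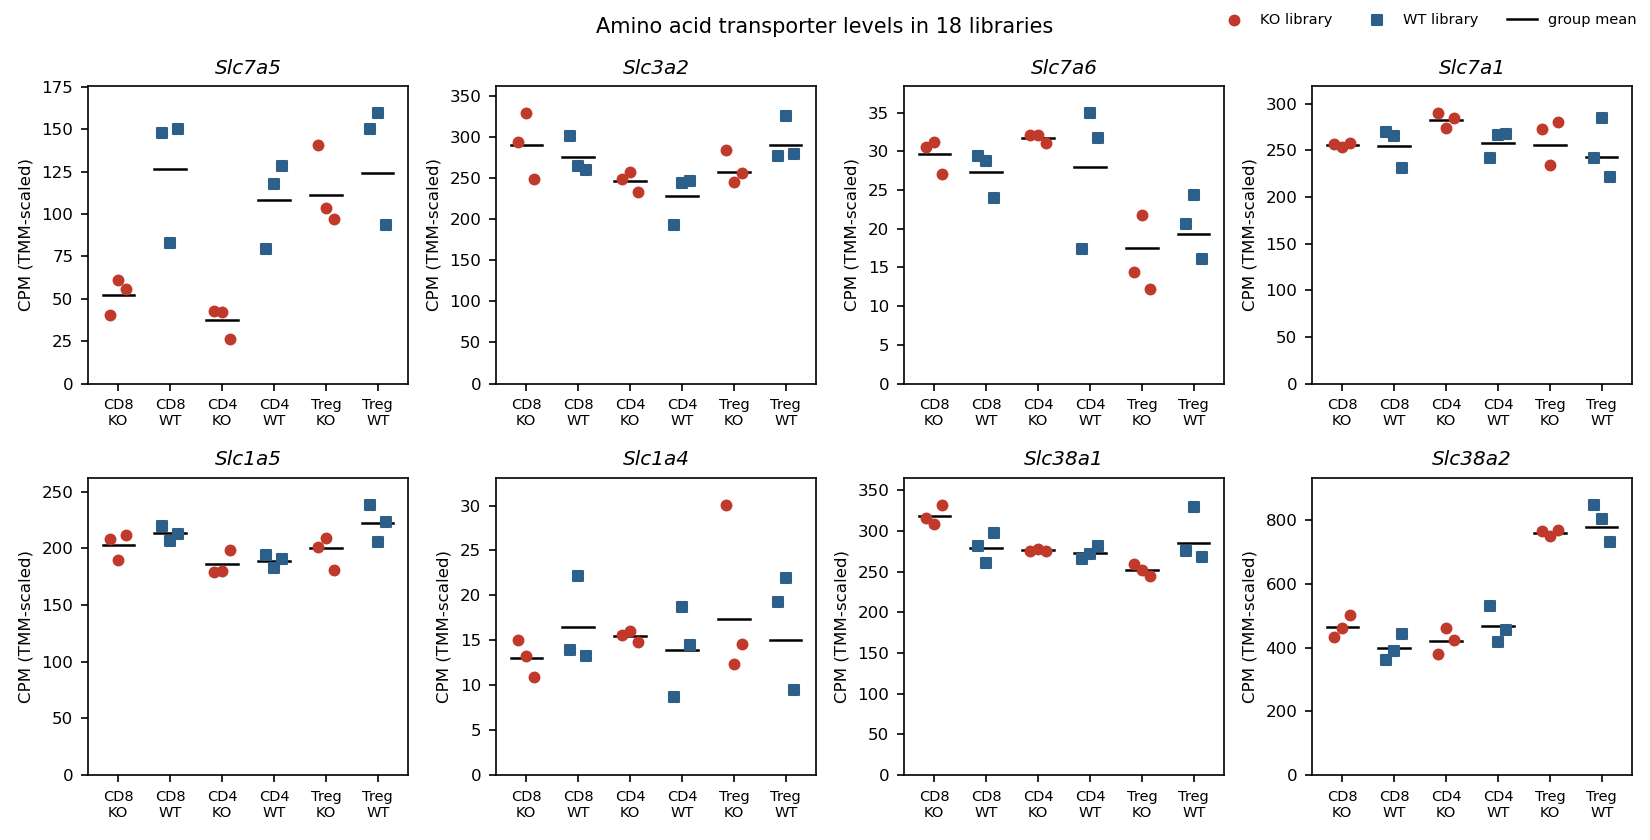
CPM of each of the 8 transporters (vertical axes, from 0) in all 18 libraries, grouped by cell label and genotype; circles are KO libraries, squares WT libraries and lines group means, with the 2 within-noise Treg pairs counted once. Slc7a5 lies between 26.4 and 61.2 CPM in the 6 CD8 and CD4 KO libraries and between 79.4 and 159.5 CPM in the other 12, while Slc38a2 stands apart by the Treg label.

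Slc3a2, the partner that LAT1 needs, had overlapping KO and WT libraries in both cell types. It had 293.6, 329.1 and 249.1 CPM in CD8 KO against 301.3, 265.2 and 259.6 CPM in CD8 WT libraries. In CD4 cells it had 249.1, 257.3 and 233.2 CPM in KO against 193.4, 244.1 and 246.3 CPM in WT libraries. The log2 differences were 0.08 (SE 0.116) in CD8 and 0.11 (SE 0.118) in CD4 cells. As tag counts within a library, Slc7a5 stood at 13.7 to 22.3 per 100 Slc3a2 tags in CD8 KO against 31.2 to 57.7 in CD8 WT libraries. It stood at 11.3 to 17.2 per 100 Slc3a2 tags in CD4 KO against 41.0 to 52.0 in CD4 WT libraries. The same ratio in the Treg label was 37.9 to 49.6 in KO against 33.6 to 54.2 in WT libraries. The ratio compares libraries only, since 3′ tags of different genes are not captured equally.

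Slc7a6 encodes the CD98-bound light chain y+LAT2, which exports cationic amino acids in exchange for neutral ones together with sodium. It was counted at 10 to 74 tags per library, from 12.2 to 34.9 CPM. CD8 KO libraries had 30.6, 31.1 and 27.1 CPM against 29.3, 28.7 and 24.0 CPM in CD8 WT libraries. CD4 KO libraries had 32.1, 32.1 and 31.1 CPM against 17.3, 34.9 and 31.8 CPM in CD4 WT libraries, in which replicate 1 was low. The groups overlapped in both cell types (log2 0.11, SE 0.198, and 0.14, SE 0.197).

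Slc7a1, the cationic transporter CAT1 that carries arginine and lysine, was among the steadiest of the 8 genes, spanning 1.31-fold over all libraries. In CD4 cells it had 289.8, 273.8 and 284.6 CPM in KO against 241.1, 266.5 and 266.9 CPM in WT libraries. These CD4 groups did not overlap, although the log2 difference was only 0.13 (SE 0.0967). In CD8 cells it had 253.1 to 257.7 CPM in KO against 231.2 to 269.0 CPM in WT libraries, with a log2 difference of 0.01 (SE 0.0967).

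The glutamine carriers showed small differences. Slc1a5, the exchanger ASCT2, had 189.8 to 212.1 CPM in CD8 KO against 206.7 to 220.2 CPM in CD8 WT libraries (log2 -0.07, SE 0.0979). It had 178.9 to 198.9 CPM in CD4 KO against 182.8 to 194.2 CPM in CD4 WT libraries (log2 -0.02, SE 0.0993). Slc38a1, the sodium-coupled carrier SNAT1, had 315.6, 309.2 and 332.7 CPM in CD8 KO against 281.4, 260.2 and 297.3 CPM in CD8 WT libraries. Every CD8 KO library was above every CD8 WT library, by a log2 difference of 0.19 (SE 0.0928). In CD4 cells Slc38a1 was nearly level, with 275.8 to 277.5 CPM in KO against 265.6 to 281.9 CPM in WT libraries (log2 0.02, SE 0.0936). Slc38a2, the related carrier SNAT2, had 432.6, 460.3 and 503.0 CPM in CD8 KO against 361.9, 388.3 and 442.7 CPM in CD8 WT libraries (log2 0.23, SE 0.109). It had 379.0, 460.7 and 422.7 CPM in CD4 KO against 529.1, 415.8 and 455.2 CPM in CD4 WT libraries (log2 -0.15, SE 0.109), and the ranges overlapped in both cell types.

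Slc1a4, the exchanger ASCT1 for alanine, serine and cysteine, was counted at only 10 to 44 tags per library. It had 15.03, 13.3 and 10.9 CPM in CD8 KO against 13.9, 22.2 and 13.2 CPM in CD8 WT libraries. CD4 KO libraries had 15.6, 16.1 and 14.8 CPM against 8.66, 18.7 and 14.5 CPM in CD4 WT libraries. The groups overlapped, and intervals as wide as -0.886 to 0.218 (CD8) and -0.451 to 0.657 (CD4) on the log2 scale show what this depth leaves undecided.

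For the other transporters the Treg label had overlapping KO and WT libraries except Slc38a1. Slc38a1 had 260.1, 252.3 and 244.4 CPM in Treg-labelled KO against 276.0, 329.9 and 267.9 CPM in Treg-labelled WT libraries (log2 -0.18, SE 0.114). Slc3a2 had 244.7 to 284.2 CPM in KO against 277.3 to 325.0 CPM in WT libraries, and Slc1a5 181.2 to 209.6 CPM in KO against 205.7 to 238.8 CPM in WT libraries. Slc7a1 had 234.3 to 279.7 CPM in KO against 221.5 to 284.9 CPM in WT libraries. Slc1a4 had 12.3 to 30.1 CPM in KO against 9.47 to 21.9 CPM in WT libraries, with replicate 1 highest in KO.

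Across the 7 transporters other than Slc7a5, KO over WT log2 differences ranged from -0.334 to 0.227 in CD8, from -0.148 to 0.142 in CD4 and from -0.234 to 0.191 in Treg-labelled cells. Of these 7, 1 had KO and WT libraries that did not overlap in CD8 cells (Slc38a1 higher), as was so for 17.4% of all genes tested. In CD4 cells 1 did not overlap (Slc7a1 higher), against 9.64% of all genes. In the Treg label 1 did not (Slc38a1 lower), against 9.4% of all genes. The Slc7a5 libraries did not overlap in CD8 or CD4 cells either. Slc7a5 was chosen on these low KO libraries and is left out of the counts. Summed, the 7 other transporters had 1553 to 1593 CPM in CD8 KO against 1436 to 1481 CPM in CD8 WT libraries. They had 1420 to 1498 CPM in CD4 KO against 1434 to 1487 CPM in CD4 WT libraries. Globin transcripts were higher on average in CD8 KO, at 1061, 972 and 1452 CPM against 619, 698 and 1031 CPM in CD8 WT libraries, with overlap. In CD4 cells the globin means went the other way, at 861.8 CPM in KO and 1120 CPM in WT. B cell markers summed to 7082 to 9572 CPM in CD8 KO against 4650 to 7762 CPM in CD8 WT libraries, also with overlap. With globin level as a covariate Slc7a5 had a log2 difference of -1.20 in CD8 and -1.60 in CD4 cells. With that covariate the CD8 differences became 0.28 for Slc3a2, 0.47 for Slc7a6 and -0.01 for Slc38a2.

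**Figure D2:**
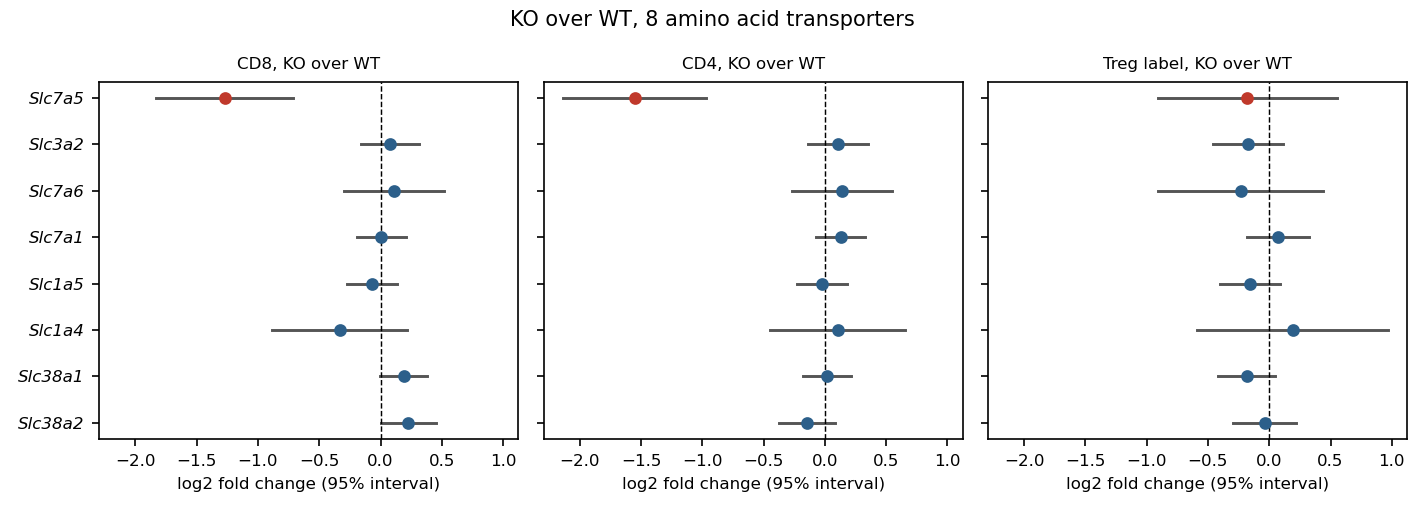
KO over WT log2 fold change (points) with 95% intervals (lines) for the 8 transporters in CD8, CD4 and Treg-labelled cells; Slc7a5 is red. Slc7a5 lies at -1.27 in CD8 and -1.55 in CD4 cells, and the other 7 points lie between -0.334 and 0.227 in these cells. Slc7a5 was chosen on its low KO libraries of these cells, so its intervals there serve as no test.

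The comparison of cell labels uses other differences than the KO against WT values that chose Slc7a5, but all 8 genes were chosen with earlier results of these libraries known. Slc7a5 is described here without a test. None of the other 7 transporters passed between CD8 and CD4 cells. In KO cells 0 of these 7 genes passed the test for CD8 against CD4, where 2.68% of genes did (340 of 12693). In WT cells 0 of 7 passed, where 3.29% did (417 genes). The largest WT differences were 0.27 for Slc3a2 (SE 0.117, edgeR adjusted p = 0.239) and -0.23 for Slc38a2 (SE 0.11, edgeR adjusted p = 0.283). In KO cells the CD8 and CD4 libraries did not overlap for 2 of the 8 genes, where 19.2% of all genes did not. These were Slc38a1, with means of 319.2 ± 12.1 CPM in CD8 KO and 276.4 ± 0.919 CPM in CD4 KO cells, and Slc7a1, with 256.0 ± 2.49 CPM in CD8 KO and 282.7 ± 8.14 CPM in CD4 KO cells (SD, n = 3 each). In WT cells 2 of 8 did not overlap, where 18.9% of all genes did not. These were Slc3a2, with 275.4 ± 22.6 CPM in CD8 WT and 227.9 ± 29.9 CPM in CD4 WT cells, and Slc1a5, with 213.3 ± 6.75 CPM in CD8 WT and 189.2 ± 5.8 CPM in CD4 WT cells (SD, n = 3 each). In KO cells Slc7a5 was 0.50 above CD4 in CD8 libraries (interval -0.125 to 1.11), with overlapping libraries, and in WT cells the difference was 0.21 (interval -0.308 to 0.735). Among the other 7 genes the smallest edgeR adjusted p for CD8 against CD4 was 0.328 in KO and 0.239 in WT cells. With globin as a covariate Slc3a2 passed in KO cells (0.38, adjusted p = 0.0169).

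Treg-labelled libraries differed from both other labels over much of the transcriptome, and the transporters' calls are read against that background: 44.8% of genes were called against CD4 in KO, 39.7% against CD4 in WT, 41.0% against CD8 in KO and 47.2% against CD8 in WT cells. Of the 7 transporters other than Slc7a5, 2, 2, 3 and 1 were called in these comparisons, in the same order. Slc7a5 is left out of the counts of this paragraph, since its low KO libraries chose it. Libraries did not overlap for 3 of the 7 against CD4 in KO (57.5% of all genes) and 3 against CD4 in WT (50.7%). They did not overlap for 3 against CD8 in KO (55.5%) and 1 against CD8 in WT (58.1%).

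Slc38a2 was higher in the Treg label in all of them. It had 764.8, 750.2 and 768.6 CPM in Treg-labelled KO and 848.6, 803.5 and 729.9 CPM in Treg-labelled WT libraries. The other 12 libraries lay between 361.9 and 529.1 CPM, so no Treg-labelled library overlapped with them, as was so for 29.5% of all genes tested. The log2 differences were 0.85 against CD4 in KO (SE 0.113, edgeR adjusted p = 9.43e-07), 0.74 against CD4 in WT (adjusted p = 9.33e-06), 0.70 against CD8 in KO (adjusted p = 1.49e-05) and 0.97 against CD8 in WT (adjusted p = 1.26e-07). The median over all genes in these comparisons was 0.105, 0.053, 0.046 and 0.104.

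Slc7a6 was lower in the Treg label in KO cells, at 14.5, 21.8 and 12.2 CPM in Treg-labelled KO libraries against 31.1 to 32.1 CPM in CD4 KO and 27.1 to 31.1 CPM in CD8 KO libraries. The log2 differences were -0.91 against CD4 (SE 0.268, edgeR adjusted p = 0.00661) and -0.81 against CD8 (SE 0.272, edgeR adjusted p = 0.0179). These lost their calls with globin as a covariate (-0.62, adjusted p = 0.0646, against CD4) and without Treg-labelled KO replicate 3 (-0.67, adjusted p = 0.065, against CD8). In WT cells the differences were -0.54 (adjusted p = 0.11) against CD4 and -0.47 (adjusted p = 0.151) against CD8, and the first passed without CD4 WT replicate 1 (-0.75, adjusted p = 0.0116).

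Slc38a1 was lower in Treg-labelled KO (244.4 to 260.1 CPM) than in CD8 KO libraries (309.2 to 332.7 CPM), by -0.34 (SE 0.103, edgeR adjusted p = 0.00933), a call that was lost without Treg-labelled KO replicate 2 (adjusted p = 0.0563). Slc3a2 was higher in Treg-labelled WT (277.3 to 325.0 CPM) than in CD4 WT libraries (193.4 to 246.3 CPM), by 0.35 (SE 0.125, edgeR adjusted p = 0.0282). That call was lost with DESeq2 (adjusted p = 0.0728), with the compared libraries alone (adjusted p = 0.064), and without CD4 WT replicate 1 (0.25, adjusted p = 0.101), Treg-labelled WT replicate 2 (0.28, adjusted p = 0.0896) or replicate 3 (0.40, adjusted p = 0.0555). Slc7a5 was 1.59 higher in Treg-labelled KO than in CD4 KO cells (SE 0.33) and 1.09 higher than in CD8 KO cells (SE 0.321), on the same low KO libraries that chose it. In WT cells it differed by 0.21 against CD4 (interval -0.437 to 0.86) and by 0.00 against CD8 (interval -0.653 to 0.652). Slc7a1, Slc1a5 and Slc1a4 passed in none of the 4 comparisons with the Treg label, although Slc1a5 passed against CD4 in WT without Treg-labelled WT replicate 2 (0.29, adjusted p = 0.0459).

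**Figure D3:**
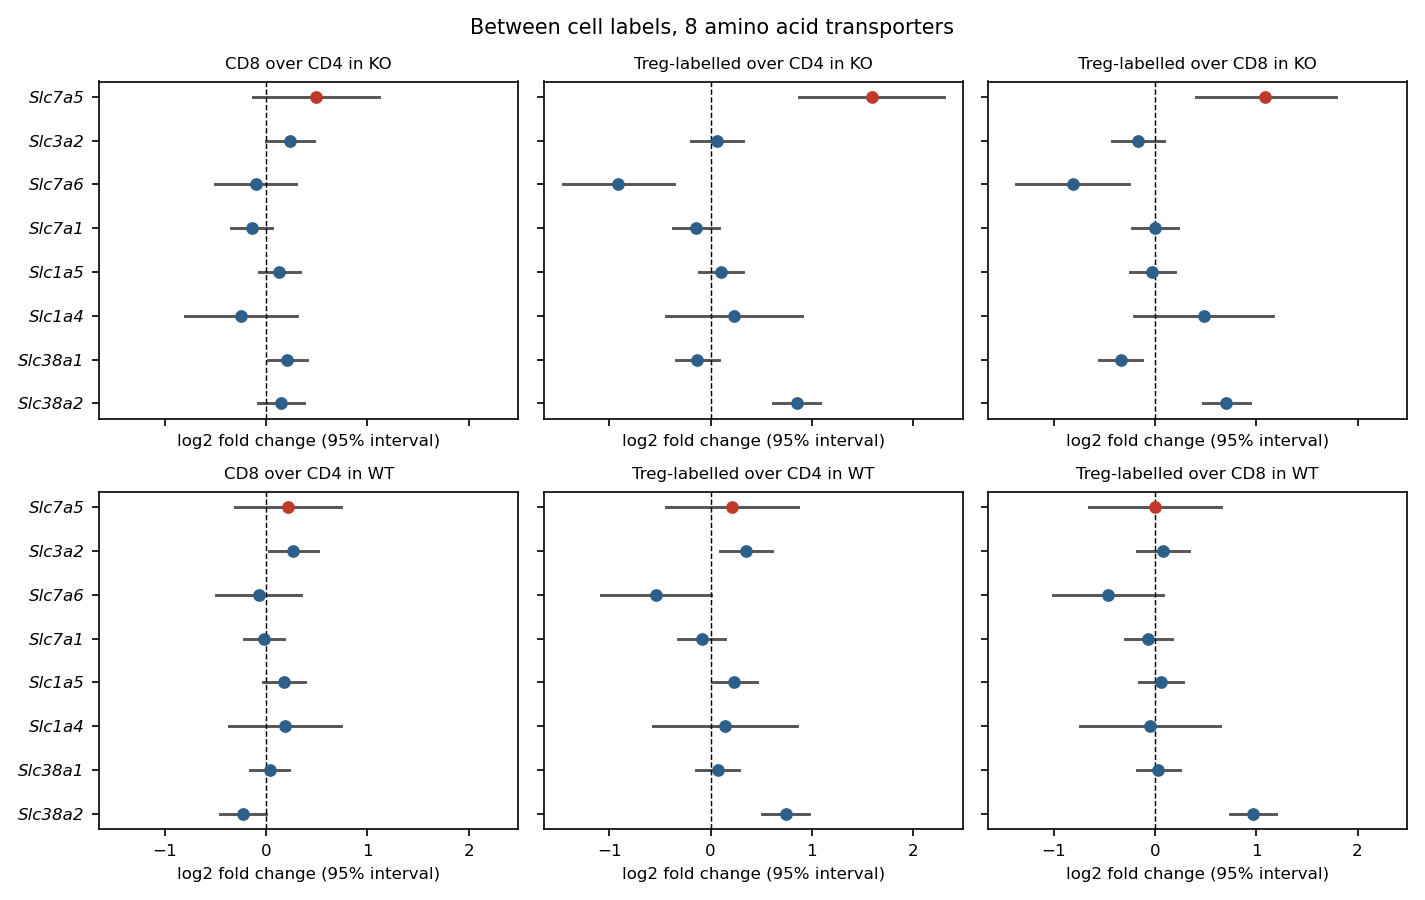
Log2 fold change (points) with 95% intervals (lines) of the 8 transporters for CD8 over CD4, Treg-labelled over CD4 and Treg-labelled over CD8, in KO cells (top row) and WT cells (bottom row); Slc7a5 is red. Slc38a2 is higher in all 4 panels of the Treg label (0.70 to 0.97). Slc7a5 is above 1 only in the KO panels of the Treg label, which rest on the low KO libraries that chose it.

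Marker sums moved with the Treg label and their part in these differences was not tested. Myeloid and dendritic markers (12 of 12 detected) summed to 57.2 to 73.5 CPM in Treg-labelled KO and 60.6 to 73.2 CPM in Treg-labelled WT libraries, against 17.2 to 33.3 CPM in the KO and 20.4 to 28.9 CPM in the WT libraries of the other labels. In CD8 WT libraries Adgre1, Cd14 and Flt3 were at 0, and in CD4 WT libraries Cd14 and Siglech. Platelet markers (up to 4 of 4 detected) summed to at most 5.77 CPM in any library. T cell markers (9 of 9 detected) summed to 1319 to 1582 CPM in Treg-labelled KO and 1102 to 1502 CPM in Treg-labelled WT libraries, against 1539 to 2258 CPM in the KO and 1436 to 2679 CPM in the WT libraries of the other labels. Treg markers (Foxp3, Il2ra, Ctla4, Ikzf2, Tnfrsf18 and Ikzf4) summed to 258.0 to 348.1 CPM in Treg-labelled KO and 220.3 to 391.6 CPM in Treg-labelled WT libraries. They summed to 877.5 to 1256 CPM in CD8 KO and 1056 to 1402 CPM in CD8 WT libraries, and to 947.3 to 1191 CPM in CD4 KO and 648.2 to 1062 CPM in CD4 WT libraries. Much of these sums is Il2ra, which also reports activation. Its means were 731.7 CPM in CD8 KO, 822.8 in CD8 WT, 656.9 in CD4 KO and 508.0 in CD4 WT cells. In the Treg label they were 125.8 CPM in KO and 117.3 in WT. The sums therefore do not show how the other members moved. In bulk libraries, fewer cells of a type and less RNA per cell cannot be told apart.

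Among other light chains that pair with CD98, 4 of 6 were tested, Slc7a5 and Slc7a6 among them, and the remaining 2 passed in none of the comparisons. Of 44 genes listed as other amino acid transporters 43 were in the table and 17 had enough counts to be tested. For KO against WT 0 of these 17 passed in any cell label, where 0.0% of all genes did. For CD8 against CD4 0 of 17 passed in either genotype, where 2.68% of all genes did in KO and 3.29% in WT cells. The largest KO difference in CD8 cells, among those with a mean log2 CPM of at least 4 over all 18 libraries, was 0.45 for Slc43a2. This carrier of large neutral amino acids had 27.2 ± 3.62 CPM in KO and 19.9 ± 2.0 CPM in WT cells (SD, n = 3 each). In CD4 cells the largest was 0.28 for Slc43a3 (76.8 ± 14.3 and 63.0 ± 10.0 CPM), a listed gene whose carriage of amino acids was not checked here.

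Of the 17, the Treg label had 9 called against CD4 in KO, where 44.8% of all genes were, 10 against CD4 in WT (39.7%), 8 against CD8 in KO (41.0%) and 9 against CD8 in WT (47.2%). Slc6a9, a glycine carrier, was higher than in CD4 cells by 1.53 in KO (adjusted p = 0.000917) and 1.30 in WT (adjusted p = 0.00416). Slc16a10, which carries aromatic amino acids, was lower than in CD4 cells, by -1.19 in KO (adjusted p = 0.012). In Treg-labelled WT libraries it stood at 1.57 ± 2.22 CPM (n = 2), under the level of 3 counts in a library of that label, against 16.8 ± 3.43 CPM in CD4 WT cells (n = 3). Slc43a1, another carrier of large neutral amino acids, was called higher in both genotypes but at levels near that of 3 counts, with 5.57 ± 0.167 CPM in Treg-labelled KO (n = 2) against 0.915 ± 0.391 CPM in CD4 KO cells (n = 3), and 7.24 ± 3.16 CPM in Treg-labelled WT (n = 2) against 1.63 ± 1.18 CPM in CD4 WT cells (n = 3). No fold is given for these low values. Slc43a1 met the count filter only through the Treg-labelled libraries, where it is high, so its calls serve as no test. It is among those counted in each of the 4 comparisons, and nothing is read from its part in the counts. Slc7a3, a cationic carrier related to Slc7a1, was lower than in CD8 cells by -1.33 in KO (adjusted p = 0.0073) and -1.58 in WT (adjusted p = 0.00224). These adjusted p-values are from edgeR's quasi-likelihood test.

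Cells short of amino acids respond through the kinase Gcn2 and the transcription factor Atf4, which raises genes of amino acid synthesis and transport. Of 26 such genes (all tested, the transporters left out) 0 passed for KO against WT in any label, where 0.0% of all genes did. In CD8 cells 3 were higher and 23 lower in KO, with a median log2 difference of -0.30 against 0.0 for all genes tested. Atf4 itself differed by -0.34, and the largest among those of mean log2 CPM of at least 4 over all 18 libraries were Ddit3, a stress transcription factor, at -0.67 (SE 0.191), with 47.7 ± 11.8 CPM in KO and 75.6 ± 9.64 CPM in WT cells (SD, n = 3 each), and Pycr1, of proline synthesis, at -0.61 (SE 0.248). Chac1, a glutathione-degrading enzyme, met that minimum only through its level in the Treg label, and had 8.31 ± 1.54 CPM in CD8 KO and 12.1 ± 2.88 CPM in CD8 WT cells (SD, n = 3 each). In CD4 cells 18 were higher and 8 lower, with a median of 0.21. With the same minimum, differences there were -0.41 for Atf5 (SE 0.172) and 0.36 for Asns, the asparagine synthetase gene (SE 0.202), and Chac1 had 13.6 ± 2.04 CPM in CD4 KO and 9.28 ± 1.81 CPM in CD4 WT cells (SD, n = 3 each). In the Treg label 7 were higher and 19 lower (median -0.09).

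Slc7a5 is also known to respond to Atf4. Its KO over WT differences were -1.27 in CD8 and -1.55 in CD4 cells, and the list's medians were -0.30 and 0.21. Whether Atf4 has a part in the Slc7a5 values was not tested. The CD8 median ranged from -0.372 to -0.14 when any 1 library was left out, and the CD4 median from 0.0621 to 0.275. With globin as a covariate the CD8 median became 0.10 with 17 of 26 higher, and the CD4 median 0.03 with 14 of 26 higher. Slc7a5 was at -1.20 and -1.60 in these fits. These list values by setting were computed after the data had been seen.

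**Figure D4:**
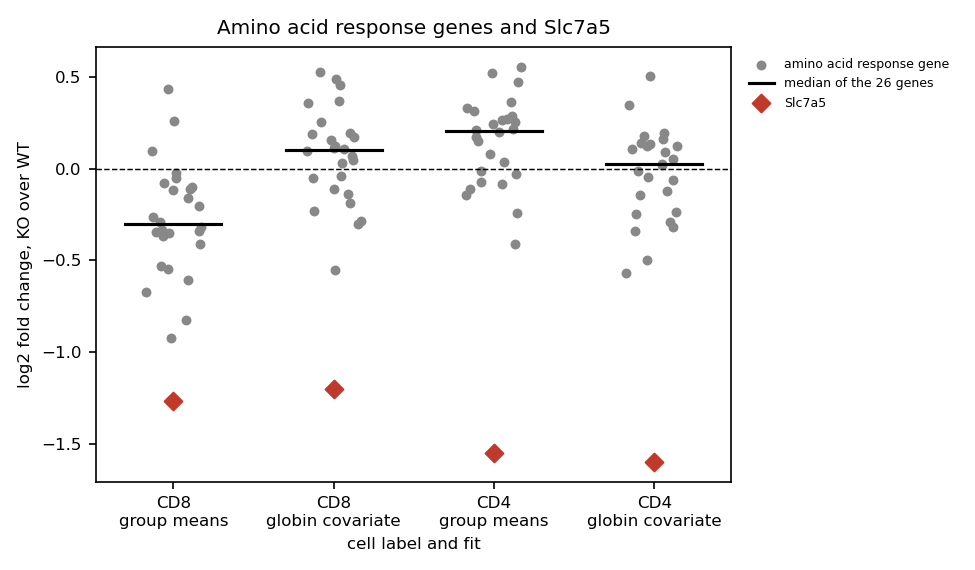
KO over WT log2 fold change (vertical axis) of 26 amino acid response genes (grey points, black line at their median) and of Slc7a5 (red diamond) in CD8 and CD4 cells, fitted by group means and with globin level as a covariate; horizontal scatter is for display. In CD8 cells the list's median is -0.30 by group means and 0.10 with the covariate, and Slc7a5 lies between -1.60 and -1.20 in all 4.

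Between the labels, Stc2 was lower in CD8 than CD4 KO cells (-1.16, edgeR adjusted p = 0.0102). Ddit4 (0.50, edgeR adjusted p = 0.0437) and Shmt2, of serine and glycine metabolism (0.46, edgeR adjusted p = 0.0186), were higher in CD8 than CD4 WT cells. Against CD4 cells the Treg label had 8 higher and 11 lower of the 26 in KO, where 3302 of all 12693 genes were higher and 2383 lower (44.8% called), and 10 higher and 6 lower in WT, where 2940 were higher and 2103 lower (39.7%). Against CD8 cells it had 9 higher and 9 lower in each genotype, where 41.0% of all genes were called in KO and 47.2% in WT. Atf5 was higher in all 4 comparisons, at 302.5 ± 45.5 CPM in Treg-labelled KO (n = 2) against 47.0 ± 5.57 CPM in CD4 KO cells (n = 3), a difference of 2.70 (edgeR adjusted p = 1.07e-11). Asns was lower, at 25.3 ± 5.81 CPM in Treg-labelled KO (n = 2) against 101.9 ± 22.8 CPM in CD4 KO cells (n = 3), a difference of -2.05 (edgeR adjusted p = 6.42e-06).

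Genes that report amino acid supply to mTORC1, and the complex itself, made a list of 36, of which 33 were in the table and 31 were tested. For KO against WT 0 passed in any label, where 0.0% of all genes did. The list's medians were 0.13 in CD8, 0.00 in CD4 and 0.03 in Treg-labelled cells. Sesn3, of the leucine-binding sestrin family, was lower in CD8 than CD4 cells in KO (-0.48, edgeR adjusted p = 0.0177) and WT (-0.59, edgeR adjusted p = 0.0033). The Treg label had 13 of the 31 called against CD4 in KO, where 44.8% of all genes were, 9 against CD4 in WT (39.7%), 10 against CD8 in KO (41.0%) and 7 against CD8 in WT (47.2%), so the list's share lay below that of all genes each time. Rraga, a GTPase that recruits mTORC1 to the lysosome, was 0.92 higher than in CD4 cells in KO (edgeR adjusted p = 9.43e-05) and 0.93 in WT (edgeR adjusted p = 9.95e-05). Mtor was lower in WT, by -0.55 against CD4 (edgeR adjusted p = 0.0065) and -0.57 against CD8 (edgeR adjusted p = 0.00393).

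Of 20 genes of glutamine, branched-chain amino acid and arginine metabolism 18 were tested. For KO against WT 0 passed in any label, where 0.0% of all genes did. Srm, the spermidine synthase gene, was higher in CD8 than CD4 WT cells (0.63, edgeR adjusted p = 0.0168). It was the 1 call of the list between these labels, where 3.29% of all genes were called in WT and 2.68% in KO cells. Of the 18, the Treg label had 0 higher in any of its comparisons. It had 9 lower against CD4 in KO, 8 against CD4 in WT, 7 against CD8 in KO and 8 against CD8 in WT. Of all 12693 genes, 2383, 2103, 2215 and 2551 were called lower in the same order. In either direction 44.8%, 39.7%, 41.0% and 47.2% of all genes were called. The list medians were -0.517, -0.472, -0.447 and -0.468 in the same order, and the medians over all genes 0.105, 0.053, 0.046 and 0.104. Srm was lower by -1.15 against CD8 in WT (edgeR adjusted p = 2.53e-05), with 110.2 ± 11.2 CPM in Treg-labelled WT (n = 2) and 246.8 ± 34.7 CPM in CD8 WT cells (n = 3). Ass1, which makes the arginine precursor argininosuccinate, was lower by -1.10 against CD4 in WT (edgeR adjusted p = 8.65e-05).

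Of 10 genes that report or drive T cell activation and transporter expression 8 were tested, and 0 passed for KO against WT, where 0.0% of all genes did. Myc, the transcription factor known to raise Slc7a5 in activated T cells, differed by 0.40 in CD8 (SE 0.301), with 44.3 ± 7.2 CPM in KO and 33.4 ± 9.31 CPM in WT cells (SD, n = 3 each). In CD4 cells it differed by -0.64 (SE 0.306), with 29.7 ± 6.9 CPM in KO and 45.2 ± 22.1 CPM in WT cells (SD, n = 3 each). Tfrc, the transferrin receptor, was lower in CD8 than CD4 KO cells (-0.56, edgeR adjusted p = 0.0222), and Max, the partner of Myc, was lower in CD8 than CD4 WT cells (-0.45, edgeR adjusted p = 0.0407). The Treg label had 6 of the 8 called against CD4 in KO (44.8% of all genes), 7 against CD4 in WT (39.7%), 7 against CD8 in KO (41.0%) and 6 against CD8 in WT (47.2%). Of those called against CD4, 3 were higher and 3 lower in KO, and 3 higher and 4 lower in WT. Il2ra, the high-affinity IL-2 receptor chain, was lower than in CD4 cells by -2.38 in KO and -2.09 in WT (edgeR adjusted p = 2.61e-05 and 9.34e-05). Tfrc was lower by -1.39 and -1.34 in the same comparisons (edgeR adjusted p = 1.07e-07 and 2.76e-07), and Hif1a, of the hypoxia response, by -1.35 and -1.30 (edgeR adjusted p = 5.29e-08 and 1.92e-07). Rel was higher than in CD4 cells by 0.71 in KO and 0.79 in WT (edgeR adjusted p = 8.65e-05 and 3.43e-05). Cd69 was higher by 0.68 and 0.61 (edgeR adjusted p = 0.00378 and 0.0132), and Max by 0.60 in KO (edgeR adjusted p = 0.000351).

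Genes that followed Slc7a5 most closely were ranked by the Pearson correlation of log2 CPM over the 12 CD8 and CD4 libraries, each centred on the mean of its cell type. The ranking held 7577 genes, with predicted genes (Gm and Rik names) and genes without a symbol passed over. The points share libraries, depth and the split by genotype, and the correlations are a description. Since Slc7a5 was chosen on its low KO libraries, this ranking favours genes lower in KO. The sign of their KO over WT differences in CD8 and CD4 cells is therefore no result. The 8 highest were Yju2 (r = 0.885), Myef2 (0.873), Dyrk2 (0.858), Lin7c (0.848), Mctp2 (0.842), Traf3ip2 (0.838), Acp6 (0.819) and Dennd4a (0.807). Their KO over WT log2 differences were much smaller than those of Slc7a5, from -0.492 (Mctp2) to -0.119 (Myef2) in CD8 and from -0.458 (Mctp2) to -0.169 (Dyrk2) in CD4 cells. Yju2, which encodes a splicing factor, had 33.2 ± 1.72 CPM in CD8 KO and 44.7 ± 3.11 CPM in CD8 WT cells, and 33.2 ± 1.88 CPM in CD4 KO and 42.2 ± 1.36 CPM in CD4 WT cells (SD, n = 3 each). In the Treg label it was 0.10 higher in KO. Yju2 lies on chromosome 17 (55959099 to 55968285) and starts 2077 bp after the end of Ebi3 on the same chromosome, and whether this bears on its level was not tested. Between 4 and 7 of these 8 genes stayed in the list when any 1 library was left out. Over the same libraries the other 7 transporters had correlations with Slc7a5 from -0.447 (Slc7a1) to 0.194 (Slc1a5), and Slc3a2 had -0.124.

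**Figure D5:**
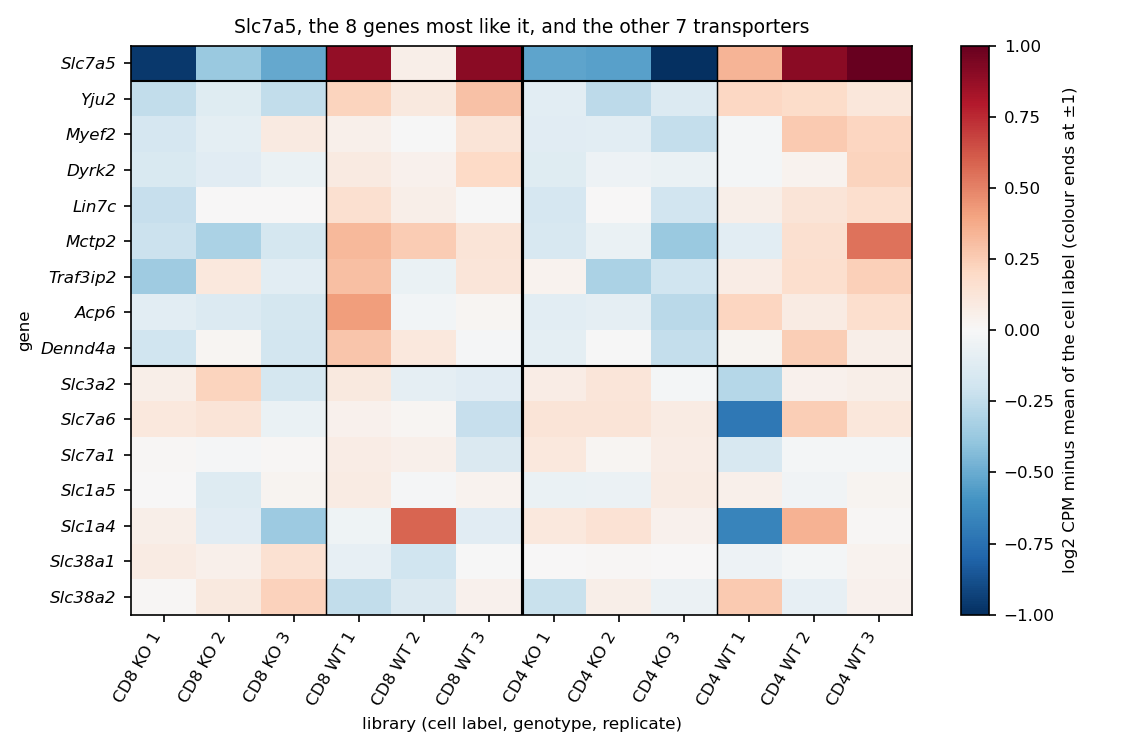
Log2 CPM minus the mean of the cell label (colour, red higher and blue lower, ending at ±1) for Slc7a5, the 8 genes most like it and the other 7 transporters (rows) in the 12 CD8 and CD4 libraries (columns, KO left of WT). Slc7a5 runs from -1.20 in CD4 KO replicate 3 to 1.02 in CD4 WT replicate 3, and in CD8 WT replicate 2 it lies at 0.06, nearest to the mean of its label.

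Promoters of 5 of the 8 transporters (7 sequences from RefSeq, GRCm38.p6, from 250 bases before to 50 after a start) were searched on both strands for TGATGNAA, the core of the element through which Atf4 acts, and for CACGTG, the E-box bound by Myc and Max. The first was in 3.97% and the second in 7.15% of all 32851 promoters. Slc1a4 held 1 match to the first, spanning its annotated start, and is shown because it was the 1 match found. The window is chr11:20332699-20332728 on the minus strand, with the reverse complement of the motif in capitals.
Slc1a4: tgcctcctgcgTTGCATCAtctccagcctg
The promoters of Slc7a1, Slc7a6, Slc3a2 and Slc38a2 held neither string of letters in these windows. Slc1a4 is the gene with the fewest tags of the 8, and its KO over WT values above overlapped in both cell types.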

How the data were processed

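Messenger RNA was measured in 18 libraries made, per the labels' protocols, from 500 ng of total RNA each with the QuantSeq 3′ FWD kit, which reads transcript 3′ ends, with unique molecular identifiers. The authors deposited raw counts per Ensembl gene. The genome build was GRCm38 (mm10) and the tools were STAR 2.5.3a, Subread 2.0.0 with featureCounts, UMI-tools 1.0.0, cutadapt 2.10 and FastQC, per the submitters' processing notes; for the strand setting, multi-mapping rule and annotation release the sources used here give nothing. Symbols were found for 55141 IDs; a symbol with several IDs was kept on the ID with most counts (Ddit3 among the genes named).

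Counts were filtered with filterByExpr (minimum 10), scaled by TMM over all 18 libraries and tested with glmQLFit (robust) and glmQLFTest in edgeR 4.0.16 (R 4.3.3), adjusted by Benjamini-Hochberg over 12693 genes with a threshold of 0.05. CD8 and CD4 comparisons used their 12 libraries (8 residual degrees of freedom, common dispersion 0.0121). Comparisons with the Treg label used all libraries, with 2 within-noise pairs summed (16 samples, 10 residual degrees of freedom, dispersion 0.0106); the pairs were KO replicates 1 and 3 and WT replicates 1 and 2, by chi-square over genes of 20 or more summed counts. The same test found 4 of 9 KO and WT pairs of that label within noise, and these were kept apart by their labels. An exact permutation of 3 against 3 libraries cannot pass the threshold, so tests across genes were used. The fits were checked on simulated counts. CPM are of TMM-scaled library sizes; log2 CPM use a prior count of 2.

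All 8 transporters are given. From each list up to 6 members past the threshold were named per comparison by size of change, and for KO against WT up to 3 of largest change with mean log2 CPM of at least 4; likeness used the same minimum. Atf4 was named after its values were seen. Members and lists were chosen with earlier results of these data known. Alternatives were RLE scaling, no filter, DESeq2 1.42.0, limma-voom 3.58.1, all 18 libraries unsummed, only the compared groups, a replicate block, a globin covariate and each library left out.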

Additional observations from a re-analysis of the deposited data

Results flagged for a closer look

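Slc38a1, the SNAT1 carrier of glutamine, had KO and WT libraries that did not overlap in 2 cell labels, with KO on opposite sides. All 3 KO libraries lay above all 3 WT libraries in CD8 cells (log2 difference 0.191, interval -0.00104 to 0.383), where 17.4% of all genes did not overlap. In the Treg label all 3 KO libraries lay below all 3 WT libraries (log2 difference -0.184, interval -0.418 to 0.0499), where 9.4% of all genes did not overlap. These Treg-labelled libraries count as n = 2 per genotype, and 4 of their 9 KO and WT pairs lay within the sampling noise. The difference between the labels was not tested, and neither value passed the test of its own comparison.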

How the results depend on the processing

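Slc7a5 was lower in KO in every alternative run, from -1.30 to -1.20 in CD8 and from -1.60 to -1.54 in CD4 cells, with leave-one-out values of -1.50 to -1.12 and -1.72 to -1.36. Slc7a5 was chosen on these same low KO libraries, so its sign could hardly change. The ranges describe the processing and lend the difference no support. In the Treg label Slc7a5 ranged from -0.468 to -0.0661 over all. Replicate numbers did not pair the libraries throughout (correlation of same-numbered deviations -0.365 to 0.476). The highest, for replicate 3 of CD8, stood against -0.282 to -0.243 with the other numbers. Whether its KO and WT libraries are paired was not tested. A replicate block left the KO against WT count at 0 in each label, gave 295 calls for CD8 against CD4 in KO and 343 in WT, and left every call of the transporters as it was.

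The number of genes called moved with the processing. KO against WT in CD8 cells called 29 with DESeq2, 21 with all 18 libraries unsummed, 323 with no filter and 0 to 122 with 1 library left out, the highest without CD8 WT replicate 3. In CD4 cells it called 1 with DESeq2, 2 with the globin covariate, 12 with no filter and 2 with only the compared groups. The CD4 minus CD8 difference called 1 with DESeq2, 492 with no filter and 0 to 256 with 1 library left out, the highest without CD8 WT replicate 3. CD8 against CD4 in KO called 585 with no filter, 600 with only the compared groups and 204 to 288 with 1 left out; in WT it called 682 with all libraries unsummed, 822 with no filter, 263 with only the compared groups and 194 to 720 with 1 left out (720 without CD8 WT replicate 3). The cause was not tested.

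Differences that had missed the threshold changed sign with the processing, none of them passing it with the other sign. With the globin covariate CD8 against CD4 in KO became 0.153 for Slc7a6, 0.0424 for Slc1a4 and -0.0222 for Slc38a2, and in WT -0.132 for Slc1a4; Treg-labelled against CD8 in WT became 0.0849 for Slc7a5, 0.0583 for Slc7a1, 0.426 for Slc1a4 and -0.0111 for Slc38a1, and Slc3a2 there passed (0.312, adjusted p = 0.0377). Slc7a5 in that comparison was 0.0649 with all libraries unsummed, 0.0185 with limma-voom and 0.0637 with the replicate block, and Slc1a4 0.004 with the block. Leaving out 1 library at a time crossed 0 as well. The range for CD8 against CD4 in WT was -0.289 to 0.12 for Slc7a6, -0.0651 to 0.0459 for Slc7a1, -0.0855 to 0.468 for Slc1a4 and -0.0119 to 0.0836 for Slc38a1. The range for the Treg label against CD4 in WT was -0.163 to 0.0286 for Slc7a1, -0.0691 to 0.514 for Slc1a4 and -0.00668 to 0.153 for Slc38a1. The range for the Treg label against CD4 in KO was -0.213 to 0.53 for Slc1a4. The range for the Treg label against CD8 in WT was -0.23 to 0.289 for Slc7a5, -0.142 to 0.0487 for Slc7a1, -0.255 to 0.328 for Slc1a4 and -0.0411 to 0.119 for Slc38a1. The range for the Treg label against CD8 in KO was -0.0193 to 0.108 for Slc7a1 and -0.0893 to 0.0149 for Slc1a5. Slc38a2 stayed called in the Treg label in all 4 comparisons under all 14 alternatives of each. Low tag counts of Slc7a6 and Slc1a4 limit what can be seen for them.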
